A study of Mus musculus with 44 samples.

Results

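DNA methylation in the hippocampus was compared between mice sampled 24 h after lipopolysaccharide (LPS) and mice sampled 6 h after saline. The comparison holds 7 of the 44 libraries of the series, 4 from LPS 24 h and 3 from saline 6 h, and all 1164178 cytosines of the table that pairs them. The mice were adult male wild-type C57BL/6J animals of 8 to 12 weeks. All 7 libraries came from mice given corticosterone (CORT, the main glucocorticoid of rodents) for 7 days, at 200 mg/L with 0.6% ethanol in the water they drank. On day 8 came an injection of 4 mg/kg DFP, diisopropyl fluorophosphate, an organophosphate that blocks acetylcholinesterase for good. CORT was then given for 7 days every other week up to week 5. The last step was saline or LPS (an endotoxin of Gram-negative bacteria) at 0.5 mg/kg under the skin. The saline libraries are therefore controls for the LPS injection only, not for CORT and DFP. The time since the injection differed between the groups as well, so LPS and time cannot be told apart. The labels do not state that each library is its own animal, so every p-value here sets a difference against the spread among libraries, which may be technical.

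Methylation of cytosine in a CpG is copied to daughter strands by the methyltransferase DNMT1, laid down anew by DNMT3A and DNMT3B, and removed through oxidation by the TET enzymes. CpG-dense promoters are mostly unmethylated in any tissue, while bodies of genes and the regions between genes are mostly methylated. Levels between these extremes arise where cell types, cells or the 2 parental alleles differ, as at imprinted genes. The hippocampus, which serves memory and feeds back on the stress axis, is rich in glucocorticoid receptors and holds neurons, astrocytes, oligodendrocytes, microglia and vascular cells in one block of tissue. In DNA from such tissue, a shift in the shares of cell types and a shift within cells cannot be told apart, and bisulfite sequencing reads 5-methylcytosine and 5-hydroxymethylcytosine as one.

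The 7 libraries carried the methylation pattern of brain. At 82 tiles (fixed windows of 1 kb) under 20% methylated in saline blood and over 60% in saline cortex, the saline hippocampus libraries stood at 67.5, 65.2 and 67.2%. At 184 tiles with the opposite pattern they stood at 15.5, 14.7 and 15.0%. The LPS 24 h libraries were at 65.3, 60.6, 63.6 and 56.7% at the first tiles and at 14.01, 12.5, 13.5 and 10.5% at the second. The LPS mean was thus lower than the saline mean at both kinds of tile. Whether the share of blood cells differed between libraries was not tested. At the first tiles LPS library 1 lay within the saline range.

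LPS libraries 1 and 2 stood apart from the other 5 in a way that has to be set out before the comparison. At 5431 cytosines they were over 40 points above the mean of the other 5 libraries, and at 23 cytosines they were as far below it. On the strand concerned, the means were 75.1 and 73.7% in LPS libraries 1 and 2, against 4.39, 4.49 and 4.47% in saline and 4.71 and 4.06% in LPS libraries 3 and 4. On the opposite strand of the same CpGs, LPS libraries 1 and 2 stood at 5.05 and 5.02%, and the other 5 between 2.07 and 2.49%. CpGs whose strands differed by over 50 points numbered 3844 and 3770 in LPS libraries 1 and 2 and 36 to 73 in the other libraries, of 210485 CpGs read on both strands. The pattern was not bound to LPS: the same cytosines averaged 65.7% in cortex saline library 3 and 69.2 and 69.9% in blood saline libraries 2 and 3. They also averaged 67.1% in cortex LPS 24 h library 3, 53.7% in hippocampus LPS 6 h library 4, and 70.6 and 74.9% in hippocampus LPS 12 h libraries 1 and 3. No hippocampus saline library showed it, so here the pattern lies in the LPS group alone.

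**Figure D1:**
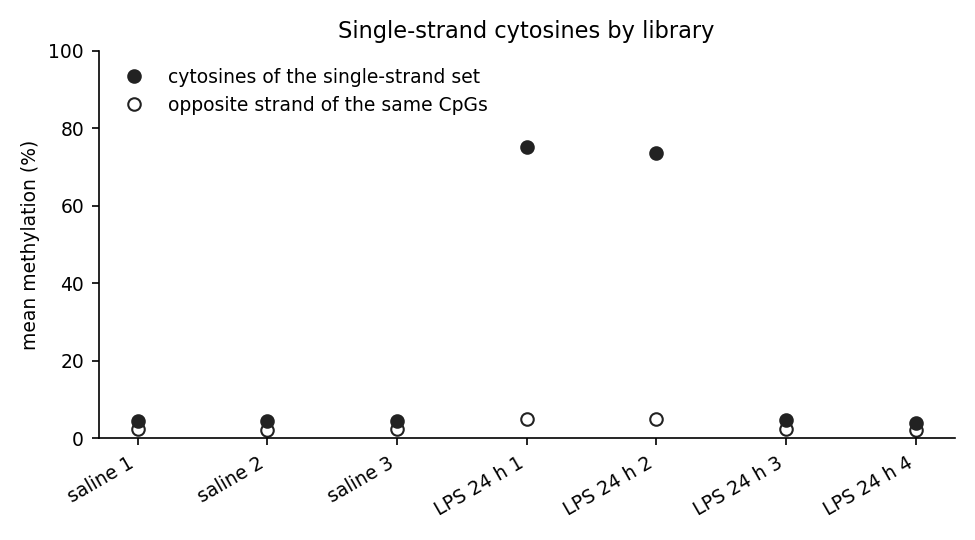
Mean methylation (vertical axis, %) in each of the 7 hippocampus libraries at the cytosines over 40 points higher in LPS libraries 1 and 2 (filled points) and at the opposite strand of the same CpGs (open points). The filled points stand at 75.1 and 73.7% in LPS libraries 1 and 2 and below 5% in the other libraries, and the open points stay low in all 7.

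These cytosines have a shared position in the sequence. Of 983 that fell inside the printed promoter windows of RefSeq (GRCm38, 250 bases before to 50 after a gene start), 953 (96.9%) were the second C of CCGG, against 14.8% of the 155369 other cytosines measured there. CCGG is the site of MspI, the enzyme commonly used to cut the genome for reduced representation libraries, and reads the same on both strands; 52.8% of the 32851 promoter windows hold it. Where the window also held the preceding CCGG on the same strand, the distance between the starts of both sites had a median of 67 bases, with 63 and 72 bases as the 1st and 99th percentiles. Among CCGG cytosines with that spacing at 60 to 71 bases, 726 of 1487 (48.8%) belonged to the set. At shorter spacing it was 2 of 9144 (0.0219%) and at longer spacing 13 of 4316 (0.301%), with all 13 at 72 bases. The windows of the corepressor gene Tle4, the clock repressor Cry1 and the synaptic adhesion gene Nrxn3 are shown because each holds such a pair, with both CCGG sites of the pair in capitals. They are written 5′ to 3′ on the strand of the gene.
Tle4 (chr19:14597164-14597463, minus strand): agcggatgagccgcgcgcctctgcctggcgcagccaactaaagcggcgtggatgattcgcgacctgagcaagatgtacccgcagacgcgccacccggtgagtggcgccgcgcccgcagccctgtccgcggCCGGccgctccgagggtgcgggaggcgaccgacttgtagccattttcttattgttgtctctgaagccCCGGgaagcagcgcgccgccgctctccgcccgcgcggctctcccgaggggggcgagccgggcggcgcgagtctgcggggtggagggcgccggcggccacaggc
Cry1 (chr10:85185005-85185304, minus strand): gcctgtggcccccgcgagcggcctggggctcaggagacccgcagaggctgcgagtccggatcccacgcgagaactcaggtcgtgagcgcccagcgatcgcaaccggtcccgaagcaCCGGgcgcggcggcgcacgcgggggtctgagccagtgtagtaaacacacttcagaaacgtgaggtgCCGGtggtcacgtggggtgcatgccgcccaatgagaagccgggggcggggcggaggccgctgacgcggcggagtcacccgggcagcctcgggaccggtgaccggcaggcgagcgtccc
Nrxn3 (chr12:89812233-89812532, plus strand): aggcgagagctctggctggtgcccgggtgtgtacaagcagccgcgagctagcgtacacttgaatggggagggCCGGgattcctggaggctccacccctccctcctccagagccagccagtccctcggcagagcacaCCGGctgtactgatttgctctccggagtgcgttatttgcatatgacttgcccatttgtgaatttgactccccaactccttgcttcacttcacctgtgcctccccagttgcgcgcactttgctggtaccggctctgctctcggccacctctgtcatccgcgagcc
At Tle4, the minus-strand cytosine at position 14597265 read 98.3 and 100% in LPS libraries 1 and 2, and 5.56, 2.38, 0, 2.70 and 2.22% in saline libraries 1 to 3 and LPS libraries 3 and 4. The opposite strand of that CpG read at most 1.79% in any library. At Cry1 the cytosine at position 85185121 read 91.8 and 96.2% in LPS libraries 1 and 2 and at most 3.92% elsewhere. At Nrxn3 the cytosine at position 89812307 read 91.9 and 93.8% in them and at most 3.03% elsewhere. Several results below are also given without those libraries, or without the cytosines whose strands differ.

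The mean over all cytosines was slightly lower after LPS. It was 27.8, 27.5 and 27.8% in saline and 27.8, 27.3, 27.2 and 26.2% in LPS, or 27.7% ± 0.139 (SD, n = 3) and 27.1% ± 0.685 (n = 4). The groups overlapped, and the difference of -0.556 points had an exact two-sided permutation p = 0.229; the smallest p that 3 against 4 libraries allow is 0.0571. The difference was -1.01 points without LPS libraries 1 and 2 and -0.241 points without LPS library 4. With strand-discordant cytosines left out, a step added after the data were seen, the means were 27.9, 27.7 and 27.9% in saline and 27.6, 27.2, 27.3 and 26.4% in LPS. The groups then no longer overlapped, and the exact permutation p was 0.0571. The median over cytosines, by contrast, was 0.0742 points higher in LPS (exact permutation p = 0.8).

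The difference was largest in partly methylated regions. Tiles were put in classes by their level in saline cortex, which took no part in the comparison. In the 9234 tiles at 20 to 50% in cortex, saline hippocampus stood at 33.4, 31.9 and 33.1% and LPS at 31.4, 29.1, 29.7 and 25.6%. In the 13974 tiles at 50 to 80%, saline stood at 65.8, 64.5 and 65.6% and LPS at 64.0, 62.0, 62.7 and 58.0%. All 4 LPS libraries lay below all 3 saline libraries in both classes, and LPS library 4 lay lowest. The differences were -3.86 and -3.62 points, against -0.732 points in the 33520 tiles at 80% or more and -1.09 points in the 5740 tiles at 5 to 20%. In the 22918 tiles under 5%, saline read 0.961, 1.04 and 0.970% and LPS 1.49, 1.45, 1.07 and 0.949%, so that LPS libraries 1 and 2 were the high ones there, and the difference without them was 0.0188 points. The exact permutation p was 0.0571, the smallest possible, for the 3 classes from 20% up, and 0.133 after Benjamini-Hochberg adjustment over the 14 classes of tiles compared. Without LPS library 4 the differences were -2.73 and -2.41 points in the 20 to 50% and 50 to 80% classes. Without LPS libraries 1 and 2 they were -5.19 and -4.93 points, and -1.67 points in the 5 to 20% class.

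**Figure D2:**
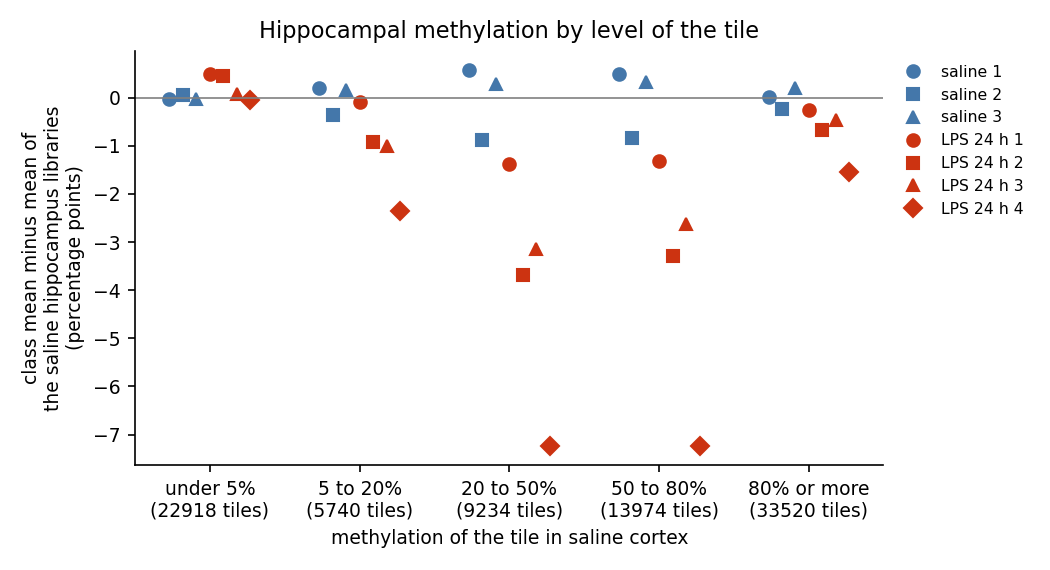
Mean methylation of tiles in 5 classes of level in saline cortex (horizontal axis), for each hippocampus library, as the difference from the mean of the saline hippocampus libraries (vertical axis, percentage points). LPS libraries lie below all saline libraries in the 3 classes from 20% up, by -3.86, -3.62 and -0.732 points on average, and LPS library 4 lies lowest.

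Tiles were also grouped by place in the genome, which goes along with their level. Tiles inside protein-coding genes but outside promoter windows (1000 bases before to 500 after a start) stood at 56.9, 56.4 and 56.8% in saline and at 56.2, 55.1, 55.4 and 53.2% in LPS. In promoter windows the levels were 7.31, 7.28 and 7.31% in saline and 7.69, 7.46, 7.15 and 6.73% in LPS, and the groups overlapped. The difference there was -0.0436 points, -0.362 points without LPS libraries 1 and 2 and 0.133 points without LPS library 4. The 32988 tiles outside protein-coding genes and promoter windows differed by -1.43 points, against -1.74 points inside genes (exact permutation p = 0.114 and 0.0571). Outside, the groups overlapped, at 67.5 to 68.2% in saline and 65.0 to 67.5% in LPS. Tiles with 3 to 9 cytosines differed by -1.77 points with no overlap of the groups. Tiles with 20 or more cytosines differed by 0.194 points (exact permutation p = 0.571) and by -0.139 points without LPS libraries 1 and 2. The 1281 tiles of the X chromosome differed by -0.214 points (exact permutation p = 0.686), with LPS library 4 lowest. Without LPS library 4 they differed by 0.0203 points, and without LPS libraries 1 and 2 by -0.410 points. The adjusted p was 0.133 for the tiles inside genes and for those with 3 to 9 cytosines.

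No single tile passed the test. Of 56952 tiles with at least 3 cytosines and a mean of 5 to 95%, limma called 0 higher (0%) and 0 lower (0%), with a call needing 5 points and an adjusted p under 0.05. At an unadjusted p under 0.05 there were 544 higher tiles (0.955%) and 4703 lower tiles (8.26%), and 864 and 3448 without LPS library 4. With libraries centred on their means, 945 tiles were higher and 3970 lower. All 4 LPS libraries lay below all saline libraries at 4675 tiles (8.21%) and above them at 667 (1.17%). The mean was lower in LPS at 69.9% of tiles, and the median difference was -1.49 points. The excess of lower tiles was shared unequally: 21.3% of tiles were over 5 points below the saline range in LPS library 4, against 4.80, 13.4 and 8.06% in LPS libraries 1, 2 and 3. At the level of 384575 single cytosines limma called 0 higher (0%) and 0 lower (0%) at 10 points, with 9675 higher (2.52%) and 18861 lower (4.9%) at an unadjusted p under 0.05. That split depended on the libraries: there were 13752 higher and 14329 lower cytosines without LPS library 4, and 4180 higher and 21565 lower without LPS library 1. Without LPS library 2 it was 4239 higher and 17836 lower. Without saline library 1, 2 or 3 it was 5781, 4842 and 5091 higher and 14694, 16747 and 14369 lower. Groups were apart at 21301 lower (5.54%) and 6624 higher (1.72%) cytosines, and 61.8% had a lower mean in LPS. In simulated data every library had the spread of the saline libraries, and only tiles of middle level were changed. Of these, 33% changed by 20 points and 87.5% changed by 40 points were recovered. The LPS libraries spread more (median SD over tiles 3.42 points, against 2.85 in saline), and no shift of whole libraries was simulated. The shares therefore do not carry over to these data, but even there most changes of 20 points were missed.

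The tiles named next are examples chosen after their values were seen, from those with the smallest p among tiles whose groups did not overlap, in or within 1 kb of a named gene. Those at Mbp, Bcl11b and Celf4 come from the same ranking among tiles with at least 10 cytosines. Their values are descriptions, and coordinates are those of GRCm38. The reference table gives gene spans without exons or untranslated regions, so a tile is placed only as inside a span, in a promoter window or outside. A tile inside Rbm26, which encodes an RNA-binding protein (chromosome 14, 105168000 to 105168999), read 26.4, 31.7 and 27.3% in saline and 12.1, 3.64, 9.79 and 9.37% in LPS over 5 cytosines. A tile inside Gng7, a G protein gamma subunit (chromosome 10, 80971000 to 80971999), read 56.6, 59.2 and 52.8% in saline and 32.3, 25.1, 33.4 and 29.0% in LPS over 11 cytosines. One inside Bbs9, a subunit of the complex that carries cargo to cilia (chromosome 9, 22829000 to 22829999), read 57.4, 51.5 and 42.7% in saline and 16.7, 14.9, 27.4 and 8.40% in LPS. All LPS values lay well below the lowest saline value at these 3 tiles. The differences were -19.8 ± 2.50 (SE), -26.3 ± 3.66 and -33.7 ± 4.74 points (n = 3 and 4), and limma gave an adjusted p = 0.341 for each.

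Further tiles from these rankings were lower in LPS as well. Rbfox3, which encodes the neuronal nuclear marker NeuN (chromosome 11, 118905000 to 118905999), read 41.8, 47.7 and 29.2% in saline and 17.3, 2.50, 19.9 and 5.88% in LPS over 4 cytosines. Cd300lb, an activating receptor of myeloid cells (chromosome 11, 114929000 to 114929999), read 45.3, 55.0 and 45.1% in saline and 31.1, 15.3, 19.7 and 13.8% in LPS. Mbp, the myelin basic protein gene of oligodendrocytes (chromosome 18, 82536000 to 82536999), read 35.9, 33.1 and 31.2% in saline and 23.3, 23.0, 16.5 and 18.8% in LPS over 12 cytosines. The groups were apart at all of these, by -28.2, -28.5 and -12.96 points. Mean levels at Bcl11b, a transcription factor of projection neurons, were 24.5% ± 2.16 in saline and 13.2% ± 2.22 in LPS. At Celf4, an RNA-binding protein of neurons, they were 50.5% ± 4.78 and 32.6% ± 5.62, and at Gli2, a transcription factor of hedgehog signalling, 27.5% ± 2.50 and 13.6% ± 1.78. At Ppp2r2c, a brain subunit of a protein phosphatase, they were 31.9% ± 1.76 and 15.3% ± 4.38. Adjusted p ranged from 0.355 to 0.396 over these tiles. The tiles at Osbpl10, Prr5, Armc9, Fnip2, Spock1, Etv6, Trim36 and Daam2 are among the 16 lower tiles with the smallest p too, and differed by -9.71 to -23.0 points.

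Tiles with higher values in LPS were fewer. Nlrp1b, an inflammasome sensor (chromosome 11, 71196000 to 71196999), read 81.7, 76.6 and 78.4% in saline and 88.9, 87.5, 90.4 and 95.7% in LPS over 4 cytosines. Syde2, which encodes a GTPase-activating protein (chromosome 3, 146019000 to 146019999), read 86.5, 87.5 and 83.9% in saline and 95.4, 95.2, 94.4 and 92.2% in LPS. Grip1, a scaffold of AMPA receptors (chromosome 10, 120049000 to 120049999), read 87.5, 88.4 and 87.1% in saline and 94.8, 93.7, 96.6 and 93.2% in LPS. All 4 LPS libraries were the higher ones, by 11.7, 8.36 and 6.90 points, with adjusted p of 0.372, 0.355 and 0.372 in limma. A tile at Cgnl1 followed, higher by 8.23 points. A tile within 1 kb of Dipk1a started low, at 10.1, 11.9 and 14.3% in saline and 33.5, 25.6, 22.7 and 19.2% in LPS.

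**Figure D3:**
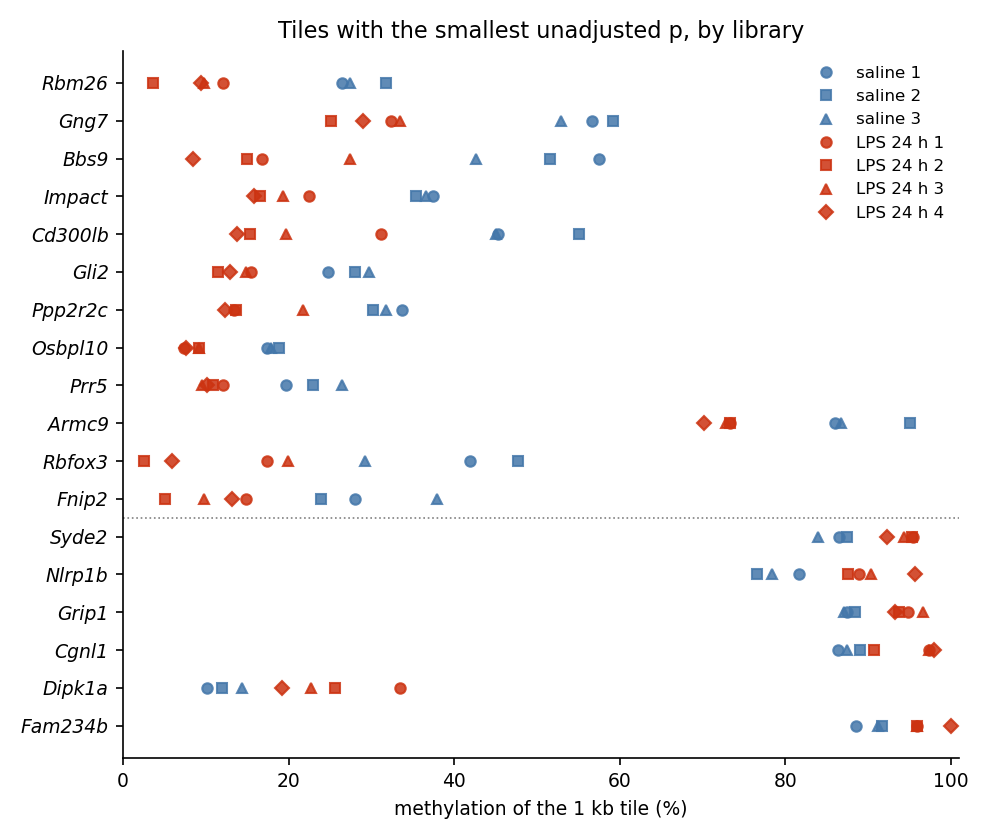
Methylation (horizontal axis, %) of the 12 lower and, under the dotted line, the 6 higher tiles with the smallest unadjusted p among tiles whose groups did not overlap, named by gene, for each library. At every tile shown the 4 LPS libraries (red) lie to one side of the 3 saline libraries (blue), which is how they were chosen.

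The tile in Rbm26 was the only one at which the 24 h difference was called different between hippocampus and cortex, the other brain region sampled at 24 h. In cortex it read 24.5, 24.7, 29.7 and 28.2% in saline and 37.3, 38.4, 30.8 and 32.3% in LPS, and all 4 LPS libraries were above the saline ones. The hippocampal difference was thus 27.7 ± 3.66 points below the cortical one (SE; limma interaction, adjusted p = 0.0263). Among 56374 tiles, 1 was called lower in hippocampus relative to cortex (0.00177%) and 0 higher (0%), and at an unadjusted p under 0.05 there were 3868 lower tiles (6.86%) and 376 higher (0.667%), or 3206 and 805 with libraries centred on their means. The call rests on 5 cytosines and 15 libraries. It was lost without any 1 of saline libraries 1, 2 and 3 or LPS libraries 2, 3 and 4 of hippocampus. The class of single-strand libraries as a term, or a replicate block, removed the call as well. Tiles at Gng7, Impact and Itga11 differed in cortex by 5.61, 1.80 and 2.36 points, with adjusted interaction p of 0.486, 0.486 and 0.472. Tiles at 20 to 50% in saline cortex averaged 32.8 to 39.2% in the 4 saline and 33.7 to 39.7% in the 4 LPS 24 h libraries of cortex, which overlapped. The same saline libraries of cortex chose these tiles, so these values are a description without a test.

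The gene nearest to a call was Impact, an imprinted gene expressed from the paternal allele, whose product inhibits the kinase GCN2 and is abundant in neurons. Over the whole gene (chromosome 18, 12954690 to 12992950, 48 cytosines), saline libraries read 38.0, 36.4 and 37.3% and LPS libraries 27.9, 24.6, 25.4 and 23.2%. The difference was -12.0 ± 1.09 points (SE), with adjusted p = 0.0930 in limma. Of the 48 cytosines, 32 lay in the tile from 12973000 to 12973999, inside the gene, which read 37.4, 35.4 and 36.6% in saline and 22.4, 16.5, 19.3 and 15.8% in LPS. The LPS mean was lower at all 32 cytosines of that tile, by 3.53 to 30.4 points, and at 26 of them no LPS library reached the lowest saline library. The cytosines span 375 bases, so neighbours can share reads and are not independent. None of them belonged to the strand-discordant cytosines. The same tile averaged 17.8% in LPS 6 h and 28.9% in LPS 12 h hippocampus, 34.5 and 36.3% in saline and LPS 24 h cortex, and 40.9 and 25.2% in saline and LPS 24 h blood.

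Impact passed the adjusted threshold under some planned settings. When tiles were required to hold at least 10 cytosines, which left fewer tiles to test, the tiles at Impact and Gng7 were called lower (adjusted p = 0.0154 for both, 2 of the tiles tested). As a whole gene, Impact was called lower with at least 10 cytosines a gene (adjusted p = 0.0497), after centring each library on its mean (0.0105) and without LPS library 1 (0.0220). It was not called without any other single library (adjusted p = 0.188 to 0.670) or without LPS libraries 1 and 2 (0.202). Across these settings the difference of the whole gene stayed between -11.3 and -12.9 points.

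**Figure D4:**
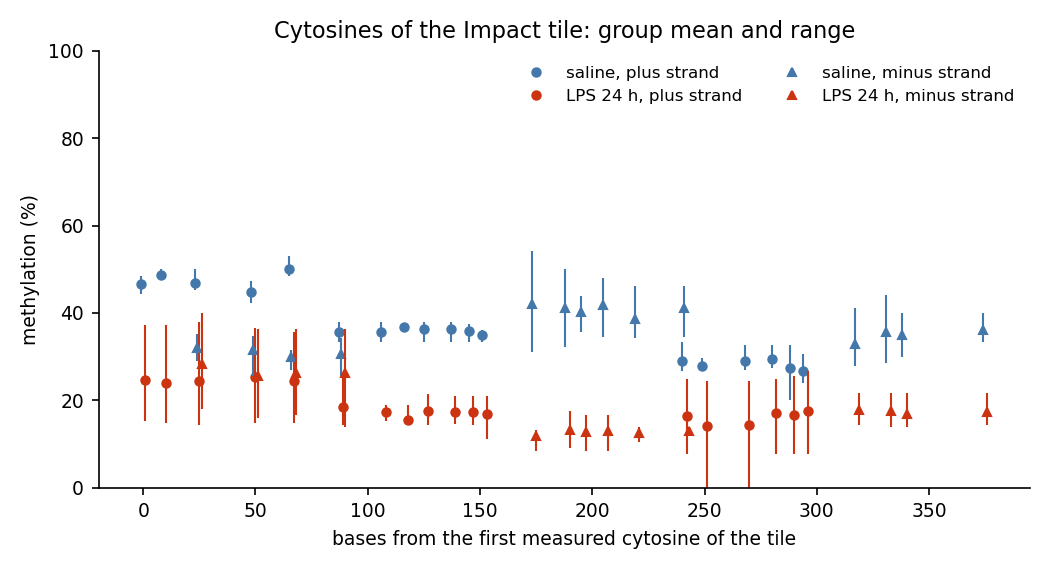
Methylation (vertical axis, %) of the 32 cytosines of the Impact tile against their distance in bases from the first one (horizontal axis). Points are group means and bars the range over 3 saline (blue) or 4 LPS 24 h libraries (red), circles the plus and triangles the minus strand; the LPS mean lies lower at all 32 cytosines.

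Other imprinted genes leaned the same way without a call, as most genes did. Of 32 listed imprinted genes tested, 0 were called and 26 were lower in LPS, at a median of -1.98 points against -0.461 points over all 11143 genes tested. Impact is not on that list. All LPS libraries lay below all saline libraries at 5 of the 32, beside 10.4% of all genes, and above them at 0, beside 1.27%. H19, a maternally expressed long RNA, read 59.2, 62.5 and 59.7% in saline and 55.3, 46.7, 53.1 and 48.2% in LPS over 11 cytosines. Meg3, another maternally expressed long RNA, read 32.9, 31.6 and 35.2% in saline and 27.2, 27.1, 30.0 and 21.95% in LPS over 27 cytosines. Usp29, Ddc and Gnas differed by -3.63, -5.74 and -2.77 points, with LPS library 4 lowest at each, and Gnas by -4.25 points without LPS libraries 1 and 2. Imprinted genes sit at intermediate levels (median 38.7% in saline), the range in which tiles differed most. Over tiles with at least 10 cytosines, 30 of 37 at listed imprinted genes and 5235 of 7470 in all were lower in LPS. Among those at 20 to 80% in saline it was 26 of 33 and 2195 of 2666, with medians of -3.26 and -2.76 points. All LPS libraries lay below all saline libraries at 3 of these 33 and 344 of these 2666 tiles, and above them at 0 and 15. Among tiles of like level the imprinted ones thus did not stand out in these counts.

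Genes taken as a whole, from 1000 bases before to 1000 after the span, gave 0 higher (0%) and 0 lower (0%) of 11143 at an adjusted p under 0.05 in limma. At an unadjusted p under 0.05, 78 were higher (0.7%) and 1060 lower (9.51%), and 70.1% of genes had a lower mean in LPS. This split changed once the libraries were set to a common mean, which moves LPS against saline by the difference of -0.556 points. Then 800 genes were higher and 676 lower at the unadjusted p, while tiles and promoter windows kept more lower than higher. The median of all genes moved from -0.461 to 0.0955 points. A gene that is lower by less than the library means are is therefore higher on the centred scale. Single libraries moved the split too: there were 304 higher and 754 lower genes without LPS library 4, and 48 and 1499 without LPS library 1. There were 52 and 838 without LPS library 2 and 160 and 914 without LPS library 3. Without saline library 1 there were 63 and 630, without saline library 2 there were 51 and 898, and without saline library 3 there were 69 and 643. Without LPS libraries 1 and 2 there were 48 and 1742.

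After Impact, the genes with the smallest p were again lower in LPS, and were chosen after their values were seen. Popdc2, a membrane protein of muscle, read 76.2, 79.4 and 77.8% in saline and 67.0, 68.0, 66.5 and 68.7% in LPS over 22 cytosines (adjusted p = 0.168). Slc5a11, a sodium-coupled inositol transporter, read 58.9, 64.3 and 64.0% in saline and 49.6, 43.4, 49.7 and 47.1% in LPS over 9 cytosines (0.277). Itga11, an integrin subunit that binds collagen, read 56.9, 58.1 and 58.5% in saline and 52.5, 50.9, 52.1 and 50.5% in LPS over 55 cytosines (0.277). The groups stood apart at each gene, and LPS libraries 1 and 2 did not differ in direction from 3 and 4. Gjd3, a connexin, stood at 12.8% ± 0.244 in saline and 10.3% ± 0.527 in LPS, and Acat3, an enzyme of acetyl-CoA metabolism, at 17.4% ± 0.392 and 14.8% ± 0.144. Higher genes were led by Nlrp1b, at 83.9, 81.3 and 82.7% in saline and 90.5, 88.9, 91.8 and 95.2% in LPS (0.338). H2-DMb1, which loads peptide on class II molecules, stood at 82.9, 82.3 and 83.2% in saline and 86.3, 85.02, 86.8 and 87.7% in LPS (0.375). Rad52 and Dpagt1 were higher by 2.84 and 1.62 points, and by 1.07 and 0.691 points without strand-discordant cytosines.

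Neuronal gene lists were lower at most members, as were all genes. Of 22 synaptic and neuronal genes 16 were lower, with a median of -0.769 points. Of 22 glutamate receptor genes 17 were lower (median -0.939 points), and of 15 genes of GABA synthesis, transport and receptors 13 (median -1.01 points). No member of these lists was called by limma. The groups did not overlap at 4, 3 and 5 members, all lower, beside 10.4% of all genes. Dlg4, the postsynaptic scaffold PSD-95, read 24.1, 24.2 and 23.7% in saline and 22.5, 21.8, 21.8 and 20.8% in LPS over 60 cytosines. Grik4, a kainate receptor subunit also listed as a marker of CA3, read 42.3, 42.1 and 42.3% in saline and 41.3, 39.2, 40.4 and 38.1% in LPS over 269 cytosines. Gabrd, the GABA receptor subunit of tonic inhibition, read 80.3, 80.5 and 81.5% in saline and 79.8, 76.3, 75.6 and 76.4% in LPS. Among hippocampal subfield markers all 11 tested were lower (median -0.705 points), with Prox1, a marker of dentate granule cells, at 16.2% ± 0.144 in saline and 14.6% ± 1.11 in LPS. After centring, 6 of these 11 were lower. Of 22 voltage-gated calcium and sodium channel genes 20 were lower (median -0.840 points), and of 31 potassium channel genes 25 (median -0.537 points, 0.0194 after centring).

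Markers of other cells of the tissue were in the same range. Of 14 microglia and macrophage markers 12 were lower (median -1.02 points), of 10 astrocyte markers 8 (-1.12), of 11 oligodendrocyte markers 10 (-1.62) and of 14 endothelial and pericyte markers 12 (-0.771). Of 24 leukocyte markers 19 were lower (-0.783), and of 7 choroid plexus and ependymal markers 4 (-0.358). The whole Mbp gene read 32.5, 31.8 and 33.1% in saline and 30.7, 30.2, 29.9 and 27.6% in LPS over 131 cytosines. Itgal, an integrin of leukocytes, read 71.2, 71.9 and 73.7% in saline and 68.3, 65.3, 69.4 and 65.9% in LPS, and Cd4 15.0, 15.0 and 15.6% and 13.6, 11.6, 12.9 and 11.4%. Acsbg1, an astrocytic acyl-CoA synthetase, went the other way, from 84.97 to 88.4% in saline and from 89.2 to 94.7% in LPS, by 4.12 points, or 2.31 points without LPS libraries 1 and 2. All 4 LPS libraries lay on one side at these 4 genes. The part that the shares of these cell types had in the differences was not tested.

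No inflammatory gene was called by limma. In the list of Toll-like receptors and the NF-kB pathway, 14 of 23 were lower (median -0.0725 points, 0.484 after centring), and of 18 cytokine and chemokine genes 15 (-0.773), of 14 interferon response genes 11 (-0.376) and of 8 inflammasome genes 5 (-0.936). The only members with groups apart were Nfkbia, the inhibitor of NF-kB, at 8.23, 7.29 and 7.53% in saline and 6.59, 7.24, 6.49 and 5.33% in LPS, and Nlrp1b, described above; of all genes 10.4% lay below and 1.27% above in that way. Tnf read 71.7, 67.0 and 61.2% in saline and 65.7, 65.6, 64.7 and 52.1% in LPS over 6 cytosines, with adjusted p = 0.675 in limma. It differed by -4.63 points, by -1.34 points without LPS library 4 and by -8.23 points without LPS libraries 1 and 2. Nlrp3, the sensor of the best studied inflammasome, read 78.4, 77.9 and 78.7% in saline and 74.3, 73.8, 79.3 and 71.5% in LPS (adjusted p = 0.527). The ATP receptor gene P2rx7 read 70.5% ± 2.59 and 69.9% ± 1.81. Il1b and Tlr4 had fewer than 3 cytosines and gave no value.

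Genes of the stress axis, the pathway that CORT acts on, and of acetylcholine, on which DFP acts, were also without a call. Of 10 tested genes of the glucocorticoid response 5 were lower and 5 higher (median 0.0725 points). At an unadjusted p under 0.05 in limma, 4 of the 10 were lower and 0 higher, beside 9.51 and 0.7% of all genes. All LPS libraries lay below all saline libraries at 1 of the 10, beside 10.4% of all genes, and above them at 0. Of 8 genes of the hypothalamic-pituitary-adrenal axis 6 were lower (-0.433). Nr3c1, the glucocorticoid receptor, stood at 1.37% ± 0.242 in saline and 1.12% ± 0.251 in LPS over 126 cytosines. Its cochaperone Fkbp5 stood at 1.40% ± 0.0575 and 1.27% ± 0.196. Both were below the tested range. Crhr1, the receptor of corticotropin-releasing hormone, read 17.0, 16.7 and 15.97% in saline and 16.1, 16.5, 16.4 and 15.6% in LPS (adjusted p = 0.716). Of 19 cholinergic genes 15 were lower (median -0.829 points). The acetylcholinesterase gene Ache, target of DFP, stood at 2.18% ± 0.374 and 2.36% ± 0.399. The muscarinic receptor gene Chrm1 read 24.6, 16.2 and 26.6% in saline and 23.7, 13.05, 22.7 and 23.5% in LPS, so 1 library of each group was low. Chrna7, a nicotinic receptor subunit, read 5.69 to 6.03% in saline and 4.90 to 5.47% in LPS.

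**Figure D5:**
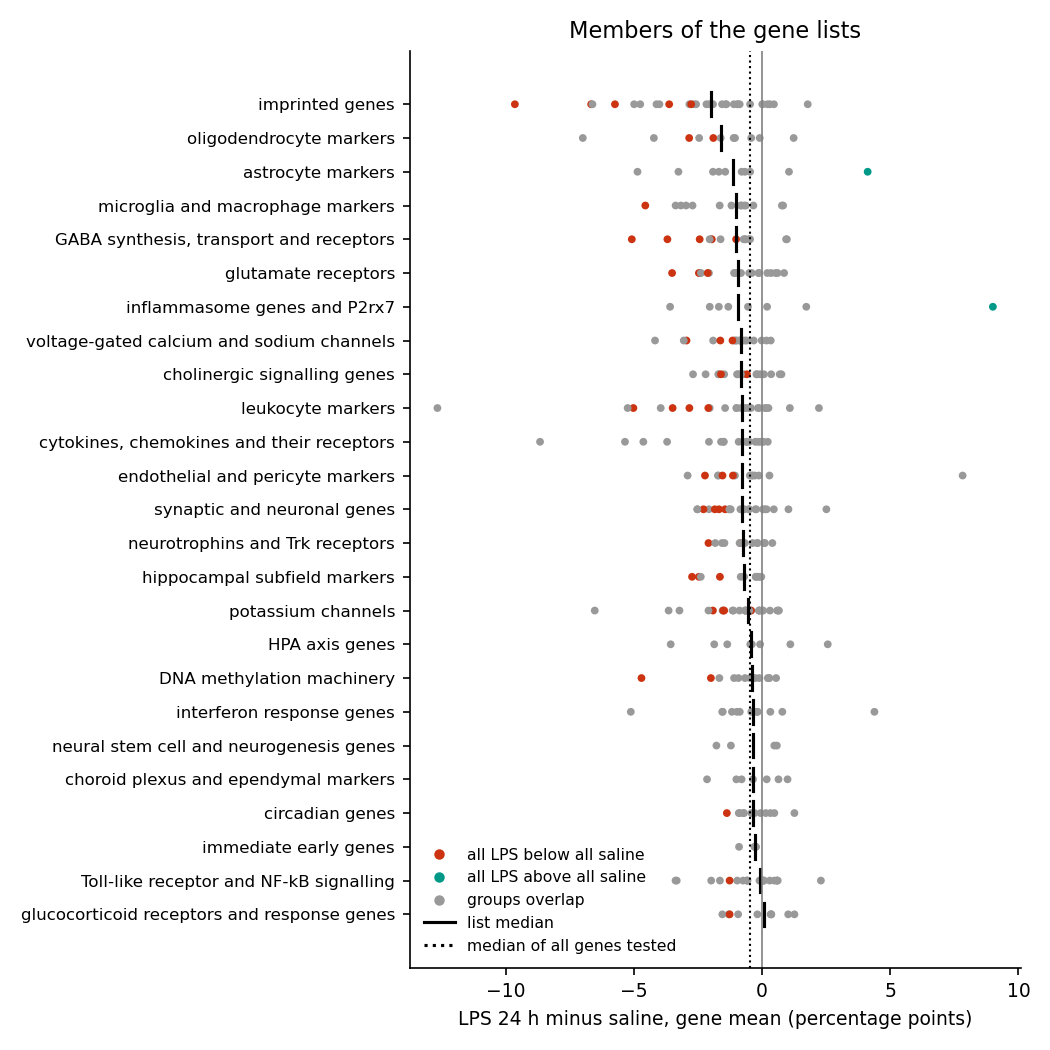
Difference between LPS 24 h and saline (horizontal axis, percentage points) for each tested member of the 25 gene lists (rows), with the list median (bar), members whose LPS libraries all lie below (red) or above (green) saline, and the median of all genes tested (dotted line, -0.461 points). Most members lie left of 0, as most genes do, and the list of imprinted genes has the lowest median, -1.98 points.

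The enzymes that write and remove methylation were measured as genes too. Of 15 genes of the DNA methylation machinery 11 were lower (median -0.397 points, 0.160 after centring). Dnmt3a read 12.8, 12.8 and 13.8% in saline and 13.1, 11.6, 12.6 and 12.4% in LPS, and Tet2 21.0, 21.3 and 20.7% and 20.6, 19.2, 21.0 and 18.8% (adjusted p = 0.612 and 0.550 in limma). Tet3 was 0.280 points higher, and 0.218 points lower without strand-discordant cytosines. Tdg, the glycosylase that completes demethylation, read 9.90, 8.62 and 12.1% in saline and 8.52, 8.04, 8.05 and 8.27% in LPS. Of 14 neurotrophin and Trk receptor genes 11 were lower (median -0.728 points), and Bdnf stood at 1.57% ± 0.0841 and 1.93% ± 0.322, with LPS libraries 1 and 2 the high ones. Of 4 immediate early genes all were lower (-0.273), of 12 circadian genes 8 (-0.357) and of 4 neural stem cell and neurogenesis genes 2 (-0.372). After centring, the medians of these 3 lists turned above 0, as did those of the interferon, choroid plexus, Toll-like receptor and hypothalamic-pituitary-adrenal lists. Gfap, the intermediate filament of astrocytes, read 35.8, 37.4 and 34.3% in saline and 34.0, 37.7, 35.2 and 40.6% in LPS. Spi1, a transcription factor of microglia and other myeloid cells, read 46.0, 41.4 and 47.8% and 45.7, 44.2, 44.6 and 42.9%. The groups overlapped at Gfap and Spi1.

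Promoter windows, placed by the starts and strands of the RefSeq promoter table, gave 0 higher (0%) and 0 lower (0%) of 1496 at an adjusted p under 0.05 and 5 points in limma. At an unadjusted p under 0.05, 12 were higher (0.802%) and 142 lower (9.49%). With libraries centred on their means it was 29 and 119, and without LPS library 4 it was 40 and 92. Without saline library 1 there were 94 lower windows and without saline library 3 there were 88, and 26 were higher without LPS library 3. With no limit on the mean, 340 of 12721 windows were higher and 295 lower. All LPS libraries lay below all saline libraries at 9.76% of windows and above them at 0.869%, and 71.3% had a lower mean. The windows named here have the smallest p among those whose groups did not overlap and were chosen after their values were seen. Islr, a secreted protein of stromal cells, read 82.0, 77.9 and 78.7% in saline and 69.6, 63.5, 70.1 and 65.1% in LPS over 6 cytosines (adjusted p = 0.398). Hopx, a homeodomain protein found in adult neural stem cells, read 30.0, 29.5 and 31.6% in saline and 20.8, 26.1, 20.2 and 22.8% in LPS over 10 cytosines. Cntfr, the receptor of ciliary neurotrophic factor, read 7.05, 7.17 and 8.73% and 5.65, 2.38, 3.53 and 2.06% over 11 cytosines. All LPS libraries lay below saline at these windows. Espn, an actin-bundling protein, stood at 49.7% ± 2.62 and 37.0% ± 4.77 and Ccrl2, a chemokine-binding receptor, at 13.2% ± 2.17 and 6.40% ± 2.51.

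A few of these windows had 3 or more measured cytosines in the stretch that the RefSeq sequence table holds. Those of Art5, an ADP-ribosyltransferase, and Slc4a10, a bicarbonate transporter of neurons, are shown as lower windows and that of Themis2, a signalling protein of B cells and macrophages, as a higher one. Capitals mark the measured cytosines, as C on the strand written and as G where the cytosine lies on the other strand.
Art5 (chr7:102100180-102100479, minus strand): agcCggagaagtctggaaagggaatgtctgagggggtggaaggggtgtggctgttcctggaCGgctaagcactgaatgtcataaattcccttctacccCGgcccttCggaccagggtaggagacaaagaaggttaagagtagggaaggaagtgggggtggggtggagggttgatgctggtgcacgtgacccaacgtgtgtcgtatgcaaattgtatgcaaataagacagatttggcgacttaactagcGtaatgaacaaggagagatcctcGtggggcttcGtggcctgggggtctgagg
Slc4a10 (chr2:62046265-62046564, plus strand): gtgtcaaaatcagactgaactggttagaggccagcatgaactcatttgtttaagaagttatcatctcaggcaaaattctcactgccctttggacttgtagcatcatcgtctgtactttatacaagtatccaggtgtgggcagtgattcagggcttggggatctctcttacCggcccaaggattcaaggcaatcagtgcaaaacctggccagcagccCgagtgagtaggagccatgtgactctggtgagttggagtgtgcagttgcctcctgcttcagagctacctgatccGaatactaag
Themis2 (chr4:132796315-132796614, minus strand): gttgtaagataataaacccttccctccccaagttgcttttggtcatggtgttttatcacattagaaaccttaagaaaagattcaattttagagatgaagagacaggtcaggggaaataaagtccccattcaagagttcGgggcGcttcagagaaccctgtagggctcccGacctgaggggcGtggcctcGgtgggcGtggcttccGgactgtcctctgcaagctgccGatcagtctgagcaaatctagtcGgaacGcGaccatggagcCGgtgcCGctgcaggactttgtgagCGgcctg
Over the 9 cytosines of the Art5 sequence, saline libraries averaged 6.77, 9.86 and 11.6% and LPS libraries 6.83, 4.87, 4.89 and 4.52%. LPS library 1 lay just above saline library 1, so the groups overlapped over this stretch, though not over the whole Art5 window. Over the 3 of Slc4a10 the means were 6.97, 10.5 and 8.73% in saline and 2.60, 3.51, 6.21 and 6.02% in LPS. Over the 17 of Themis2 they were 1.92, 1.30 and 2.60% in saline and 9.90, 9.24, 2.45 and 3.03% in LPS. The high values at Themis2 were those of LPS libraries 1 and 2, and without these libraries its window differed by 1.24 points in place of 3.43. The higher windows of Pheta2 and Dhh differed by 3.61 and 3.36 points, and by 2.57 and 2.25 points without LPS libraries 1 and 2. Without strand-discordant cytosines they differed by 0.733 and 1.84 points, while those of Nt5dc2 and Trim13 kept 10.6 and 4.90 points.

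The 24 h libraries were compared directly with the other LPS libraries of hippocampus on 52131 tiles found in all 3 hippocampus tables. Against LPS 6 h, limma called 0 tiles higher (0%) and 0 lower (0%), with 2009 higher (3.85%) and 563 lower (1.08%) at an unadjusted p under 0.05 (4.93% in all). Centred libraries gave 1593 higher and 1062 lower, and 3041 were higher without LPS 24 h library 4. Against LPS 12 h it called 0 and 0 as well (0% each), with 625 higher (1.2%) and 1017 lower (1.95%; 3.15% in all). Without LPS 24 h library 4 it was 840 higher and 714 lower, so the order of the counts turned, and centred libraries gave 921 and 1049. In tiles at 20 to 50% in saline cortex, the mean was 32.4% ± 0.767 (SD, n = 3) in saline and 26.4% ± 2.21 (n = 4) at 6 h. It was 30.3% ± 6.14 (n = 3) at 12 h and 28.6% ± 2.45 (n = 4) at 24 h. Libraries ranged from 23.3 to 28.1% at 6 h, from 23.4 to 35.2% at 12 h and from 25.2 to 31.1% at 24 h, so the 3 LPS groups overlapped. They share the same saline libraries, so their differences from saline are not independent. At the Gng7 tile the means were 32.6% at 6 h and 44.6% at 12 h, beside 30.0% at 24 h, and at Rbm26 16.4 and 19.1%, beside 8.72%.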

How the data were processed

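Per the labels' protocols, 100 ng of DNA per sample went into reduced representation bisulfite libraries (Ovation RRBS Methyl-Seq System). The values deposited by the authors are percent methylation of single cytosines on GRCm38/mm10. The submitters' processing notes name Bismark with Bowtie2, methylKit, Trim Galore, SAMtools and FastQC. For their versions, settings and coverage minimum, nothing was found in the labels or file headers. The tables hold no read counts, so the depth behind each value is unknown and no counting interval is given. No library was a copy: the closest pair shared its value at 48.4% of cytosines, mostly at 0 or 100%.

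Percent values were averaged over tiles of 1000 bp with at least 3 cytosines, over genes with 1000 bp on each side (RefSeq spans, GRCm38.p6) and over promoter windows from 1000 bp before to 500 bp after a start (RefSeq promoter table, GRCm38). Of 555 listed genes 554 matched the reference. Differences were tested with limma (version 3.58.1, R 4.3.3; eBayes trend on, two-sided, p-values adjusted by Benjamini-Hochberg across every feature tested) for features with a mean of 5 to 95%, and calls needed an adjusted p under 0.05. They also needed 5 points for tiles and promoters and 10 points for cytosines, with no minimum for genes. Means over classes were compared by exact permutation tests. Cytosines whose strands differed by over 40 points in any library, and a set of single-strand cytosines found in saline blood and cortex, were masked as an alternative. The scripts were tested on simulated data. Python 3.11.15 with numpy 2.4.6, pandas 2.3.3 and matplotlib 3.10.9 did the rest.

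The members, gene lists and tests were chosen with earlier results of these data known. The rule for named genes took called tiles and promoters, called list members and 17 genes named in every case, not all of which are reported here. As nothing was called, tiles, genes and promoters are named as examples from those with the smallest p among those whose groups did not overlap, some tiles from the ranking with at least 10 cytosines. List members are examples chosen after their values were seen. The correlation of their deviations showed no clear pairing of libraries by replicate number, within hippocampus or between hippocampus and cortex, but cannot exclude one. No block was used in the main fits.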

Additional observations from a re-analysis of the deposited data

Results flagged for a closer look

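The tile in Rbm26 was flagged because the LPS difference at 24 h differed between hippocampus and cortex, by -27.7 points (limma interaction, adjusted p = 0.0263). That call was lost in several settings listed in the next section.

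In 9 of 96 groups of 4 LPS libraries examined, 1 library stood far from the other 3, measured as its gap to the nearest library over the range of the group. Chance flags about 1 in 20 groups that are independent and normal. Most of these groups were picked by their values and some share cytosines, so the count cannot be read against that rate. The gap was 0.861 of the range at the Ppp2r2c tile, where LPS library 3 read 21.8% and the others 12.2 to 13.6%. It was 0.844 at the Armc9 tile (70.2% in LPS library 4, others 72.8 to 73.3%) and 0.924 at the Cgnl1 tile (90.7% in LPS library 2, others 97.4 to 97.9%). It was 0.994 at the Fam234b tile (100% in LPS library 4, others 95.8 to 95.9%). At the Sipa1 tile it was 0.933 (8.92% in LPS library 1, others 5.02 to 5.28%) and at the Meg3 tile 0.842 (21.5% in LPS library 1, others 13.7 to 14.9%). At whole genes it was 0.887 at Cd99l2 (14.5% in LPS library 4, others 16.8 to 17.1%), 0.911 at Chrm1 (13.05% in LPS library 2, others 22.7 to 23.7%) and 0.929 at Tnf (52.1% in LPS library 4, others 64.7 to 65.7%).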

How the results depend on the processing

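Counts of calls stayed at 0 in each direction for tiles, cytosines, genes and promoters under most alternatives. The exceptions were 2 lower tiles with at least 10 cytosines a tile, and 2 higher and 6 lower cytosines with no limit on the mean. A single lower gene, Impact, was called after centring (1) and with at least 10 cytosines a gene (1). Leaving out 1 library each gave 0 to 1 lower genes, the 1 being without LPS library 1. The tile called between hippocampus and cortex gave 0 to 1 calls without 1 library each, 0 with library class as a term and 0 with a replicate block. Deviations of same-numbered saline and LPS libraries of hippocampus correlated at 0.0434, -0.00200 and -0.00223. Those of the 7 hippocampus and cortex libraries of equal group and number correlated at -0.0216 to 0.0988, and those of other number at -0.0814 to 0.0626. Of the 7, 3 were closest to their own number. Correlations this low do not show pairing in either set, but they cannot exclude it. With hippocampus minus cortex taken within these 7 (replicate block, added after the data were seen), 0 tiles were called and Rbm26 differed by -28.2 points (limma, adjusted p = 0.496). Against LPS 12 h the block gave 916 lower tiles and more higher ones at an unadjusted p under 0.05. The replicate block left 0 calls everywhere and 4506 tiles at an unadjusted p under 0.05, against 5247 without it. No saline library of hippocampus has the number of LPS library 4, so against saline the block takes that library out of the difference. Whole-gene Impact, for example, differed by -11.3 points both with the block and without LPS library 4. What else changed the counts was not tested. The mean difference of -0.556 points was -0.241 over the 3 pairs of equal number (replicate block), which leave out LPS library 4. It was 0.0742 with the median over cytosines and -0.241 (without LPS library 4) to -0.783 without 1 library each. Class means turned in tiles with 20 or more cytosines without LPS libraries 1 and 2 (-0.139), and in promoter windows (0.133) and on the X chromosome (0.0203) without LPS library 4. The pairs of equal number use the same libraries and gave the same values for these class means. Without 1 library each, these ran from -0.189 to 0.133 and from -0.357 to 0.0203.

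Reversed single genes were near 0 in most cases. Within 1000 bp of gene ends, Cacna1i (0.0472), Gfap (-4.66) and Kcnip1 (2.98) turned. After centring, Crhr1 (0.154), Kcnk2 (0.120) and P2rx7 (0.00390) turned. With the block, which equals leaving out LPS library 4 for these differences, Gfap (-0.186) and P2rx7 (0.127) turned. Without 1 library each, Chrm1 ran from -4.84 to 0.866 (0.350 without saline library 3), Gfap from -0.186 to 2.002, P2rx7 from -1.57 to 0.907 (0.127 without LPS library 4), Spi1 from -2.54 to 0.685 and Tet3 from -0.106 to 0.595. Without LPS libraries 1 and 2, or with library class as a term, Chrm1 was 0.681 and Tet3 -0.578, and masked Tet3 -0.218. All named tiles and promoters kept their direction under the alternatives that gave a value. Depth is unknown, and 3 against 4 libraries cannot give an exact p under 0.0571.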
